A study of Mus musculus with 16 samples.

Results

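The 10 DNA glycosylase genes described here (Neil1, Neil2, Neil3, Ogg1, Mutyh, Nthl1, Ung, Smug1, Tdg and Mbd4) were taken by gene symbol. All 10 had a row among the 17986 genes with values in every library of CA1, the hippocampal field that sends the main pyramidal cell output of the hippocampus. CA1 was cut by laser from frozen sections of male C57Bl6 mice aged 3 to 6 months. The mice were labelled wild type or N3 -/-, which stands for a deficiency of Neil3 on the same background; the allele and the exons it removes are not given in the sources used here. Home cage mice had no intervention, with 2 libraries per genotype label. The exploration mice spent 20 min daily for 1 week in an open field with sides of 50 cm and died 20 min past their final session, with 3 libraries per genotype label. Each library came from 1 mouse. Of 16 labelled samples, the 6 of the learning condition were not analysed here.

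A DNA glycosylase starts base excision repair by cutting a damaged or mismatched base from the sugar, which leaves an abasic site for the AP endonuclease, DNA polymerase beta and a ligase. The family is divided by substrate. Ogg1, Mutyh, Nthl1 and the Neil enzymes deal with oxidised bases or their mispairs, Ung and Smug1 remove uracil, and Tdg and Mbd4 remove thymine from T:G mispairs at CpG sites. Tdg also cuts out formylcytosine and carboxylcytosine, the products of Tet enzymes, and thereby takes part in active DNA demethylation. Neurons no longer divide but use much oxygen, and base excision repair is a main route by which they repair oxidised bases. Neil3 is known as a glycosylase of dividing and progenitor cells that also unhooks DNA interstrand crosslinks at replication forks.

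Values are FPKM, fragments scaled for transcript length and library depth, so levels can be set side by side between genes. The libraries summed to 405718 to 466701 FPKM, with 11114 to 11623 genes at 1 FPKM or more. The spacing of low values gave an estimated depth of 18000000 to 19150000 fragments per library. At that depth 1 fragment was worth 0.0466 to 0.0496 FPKM for Neil1 and 0.0277 to 0.0295 FPKM for Neil2, and 3 fragments of Neil3 at most 0.076 FPKM. CA1 pyramidal cell markers (7 of 7 present, among them Wfs1, Fibcd1 and Pou3f1) summed to between 731 and 915 FPKM in every library, against 9.65 to 51.2 FPKM for the 4 CA3 markers. Markers of other cells were present too. Among them, CA2 markers summed to 105 to 249, dentate granule markers to 56.4 to 88.4 and interneuron markers to 173 to 287 FPKM. Oligodendrocyte markers summed to 127 to 345 FPKM. Choroid plexus markers summed to 16.1 to 234 FPKM in WT-labelled and 9.34 to 16.5 FPKM in KO-labelled libraries. Values that depend on tissue makeup share one limit: in such bulk samples fewer cells of a type and less RNA per cell cannot be told apart.

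Neil3 went against the genotype labels, so the groups are called WT-labelled and KO-labelled, and every direction between them is that of the labels. Whether the labels are exchanged was not tested; if they are, every direction between them turns around. The 5 WT-labelled libraries had Neil3 at 0 and 0 FPKM in the home cage and at 0, 0 and 0.05 FPKM after exploration. The 5 KO-labelled libraries had it at 13.77 and 15.22 FPKM in the home cage and at 15.13, 11.85 and 8.35 FPKM after exploration. No KO-labelled library came near a WT-labelled one. The single WT-labelled value above 0 corresponds to an estimated 2.1 fragments, and the KO-labelled values to an estimated 336.6 to 623.3 fragments. The means differed by 12.85 FPKM, by 14.5 FPKM in the home cage and by 11.76 FPKM after exploration. This split was known when the genes were chosen and is given as a description, with no test. Because a group stood at 0, no fold is given. The deposited values are 1 number per gene, so they do not show which exons of Neil3 (gene ID 234258, chromosome 8, positions 53586867 to 53639065, GRCm38.p6) carried the fragments.

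Among the 10 glycosylases Neil3 was the least abundant in all 5 WT-labelled libraries, in 1 of them tied with Neil2 at 0, and next to Tdg the most abundant in all 5 KO-labelled ones. It held 20.1% to 30.7% of the summed glycosylase FPKM in the KO-labelled libraries. Within these, its level was 14.5 ± 1.02 FPKM (SD, n = 2) in the home cage and 11.8 ± 3.39 FPKM (SD, n = 3) after exploration. That difference was not called (log2 change -0.31, SE 0.18, 95% interval -0.70 to 0.08, limma adjusted p 0.208). It was called only without KO-labelled exploration library 1 (log2 change -0.50, adjusted p 0.0366).

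Markers of proliferating cells were low in all libraries, whatever the level of Neil3. Mki67, a nuclear protein of cycling cells, was at most 0.05 FPKM, Top2a, the topoisomerase of dividing cells, at most 0.02 FPKM, and Cdk1, the mitotic kinase, at most 0.04 FPKM. The summed level of 7 markers of proliferating cells and neuroblasts was 2.27 to 2.84 FPKM in WT-labelled and 2.18 to 2.55 FPKM in KO-labelled home cage libraries. After exploration it was 1.70 to 2.16 and 1.41 to 1.74 FPKM. Most of the sum came from Sox11 at 0.74 to 1.77, Dcx at 0.15 to 0.84 and Birc5 at 0 to 0.61 FPKM, with Ccnb1 at most 0.1 FPKM. The sum was no higher in the KO-labelled libraries, where Neil3 was present. Which cells carried Neil3 was not tested. Of 22 genes of crosslink repair and the replication fork, 16 were tested and 0 were called between the genotype labels, averaged over environments (limma), beside 2.13% of all tested genes. At an unadjusted p under 0.05, 0 of the 16 were higher and 3 lower, beside 11.8% of all tested genes lower. Their median log2 change was -0.07, and that of all 11892 tested genes was -0.01.

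The genes whose profile over the 10 libraries was most like that of Neil3 all lay on chromosome 4, not on chromosome 8. Likeness was the mean absolute difference of log2(FPKM + 1) after each gene's own mean was taken off, with a median of 1.88 over all other tested genes. Ccl21b, which encodes a chemokine that draws lymphocytes and dendritic cells, had a difference of 0.317. Its WT-labelled values were 0, 0, 0, 0 and 0.07 FPKM. Its KO-labelled values were 26.76 and 26.14 FPKM in the home cage, and 8.41, 14.62 and 8.26 FPKM after exploration. Gm3893 followed with 0.962, from 0.28 to 0.61 FPKM in WT-labelled and 1.90 to 10.37 FPKM in KO-labelled libraries. Gm10591 came next with 1.00, at 0 in every WT-labelled library and at 0.74 to 7.21 FPKM in the KO-labelled ones; Gm13304 tied with it, with the same values in all 10 libraries. Ccl21b has near-identical copies, and Gm10591 and Gm13304 share their values, so how fragments were divided among such genes is uncertain.

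**Figure D1:**
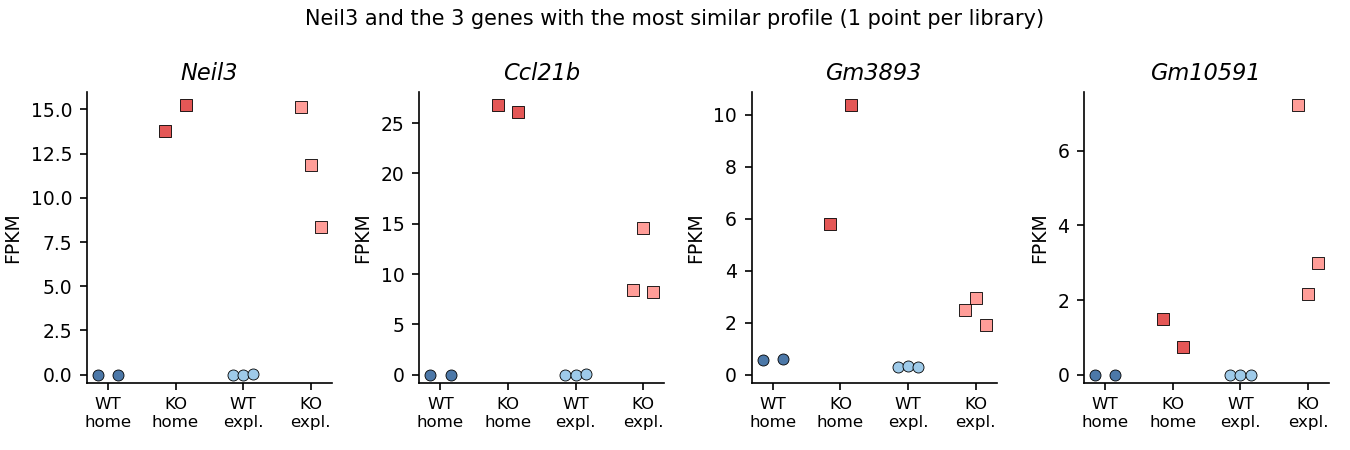
FPKM of Neil3 and of the 3 genes most like it, with 1 point per library and the 4 groups of genotype label and environment on the x axis. Neil3 is at 0 to 0.05 FPKM in the WT-labelled libraries and at 8.35 to 15.22 FPKM in the KO-labelled ones, and Ccl21b shows the same split with a lower level after exploration.

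Tdg was the most abundant of the other 9 glycosylases in every library. Its mean over the 10 libraries was 22.5 ± 2.18 FPKM (SD, n = 10), rank 3624 of 17986 genes, and it made up 57.1% to 65.1% of the summed FPKM of the 9. Smug1 followed at 5.32 ± 0.569 FPKM, and Tdg was 3.11 to 5.26 times as abundant as Smug1 in single libraries. Next came Ogg1 at 3.71 ± 0.650, Mbd4 at 2.52 ± 0.659, Neil1 at 1.20 ± 0.460, Nthl1 at 0.921 ± 0.253, Mutyh at 0.376 ± 0.113, Ung at 0.344 ± 0.121 and Neil2 at 0.132 ± 0.0958 FPKM. The thymine and uracil glycosylases Tdg and Smug1 thus stood above every enzyme for oxidised bases other than Neil3.

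Most steps of this order held library by library. The higher gene of each neighbouring pair was higher in 10 of 10 libraries, with 2 exceptions. Neil1 exceeded Nthl1 in 5 of 10 libraries, and Mutyh exceeded Ung in 5 of 10, so these pairs did not differ beyond their spread. The ranges over all libraries overlapped for each neighbouring pair below Tdg, which did not overlap with Smug1. Estimated fragments were few for the lower genes: 14.1 to 45.2 for Neil1, 9 to 27 for Nthl1 and 0 to 10 for Neil2, which limits their precision.

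**Figure D2:**
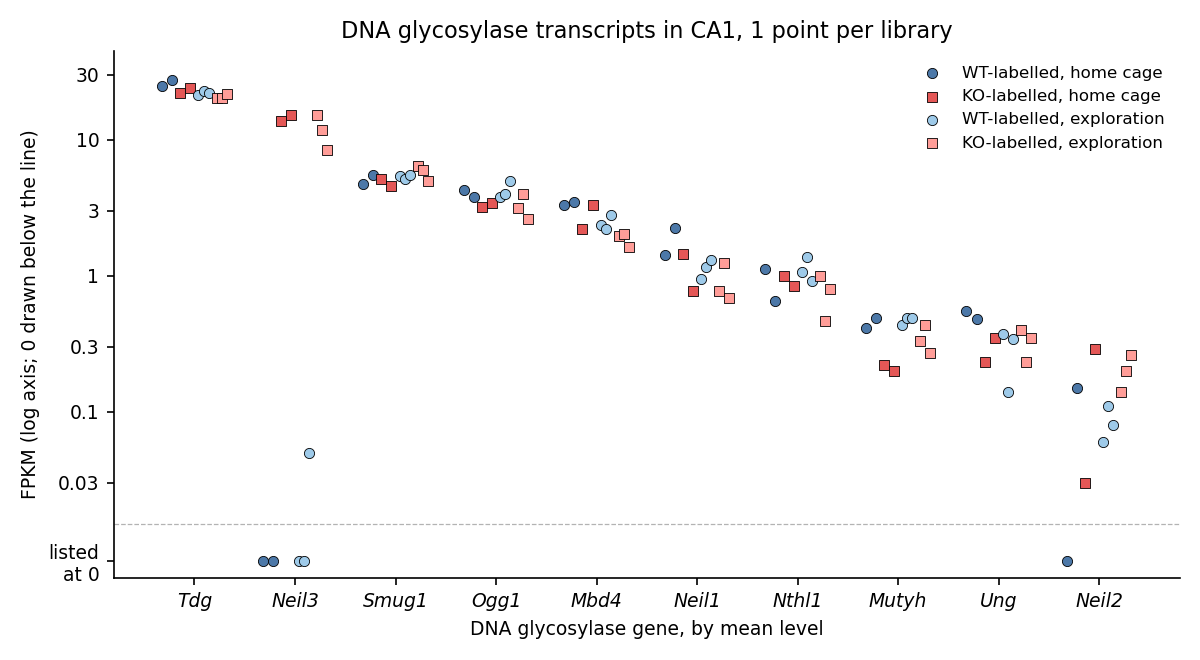
FPKM of the 10 glycosylase genes on a log axis, with genes in order of mean level and 1 point per library, and with values of 0 drawn below the dashed line. Tdg lies between 20.07 and 27.22 FPKM in all 10 libraries, and Neil3 is the gene whose points split by genotype label.

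The promoters of the members that the comparisons turn on are shown here: Tdg and Mbd4, which were lower after exploration, and Neil3, which split by genotype label. Each is the RefSeq window of 300 bases that ends 50 bases after the annotated start in GRCm38.p6, 5′ to 3′ on the gene's own strand. Tdg lies at chr10:82629588-82629887 on the plus strand, Mbd4 at chr6:115853292-115853591 and Neil3 at chr8:53639016-53639315, both on the minus strand. Capitals mark 4 motifs searched on both strands, namely GGGCGG (the GC box), CCAAT (the CCAAT box), TGACGTCA (the cyclic AMP response element) and CACGTG (an E-box). No motif overlaps another of a different kind in these windows.
Tdg: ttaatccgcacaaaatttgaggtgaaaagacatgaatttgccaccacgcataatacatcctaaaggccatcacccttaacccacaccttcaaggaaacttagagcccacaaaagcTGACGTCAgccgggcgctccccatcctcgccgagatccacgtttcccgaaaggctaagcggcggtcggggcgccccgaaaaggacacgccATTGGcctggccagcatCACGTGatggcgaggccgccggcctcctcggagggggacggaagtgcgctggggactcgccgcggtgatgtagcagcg
Mbd4: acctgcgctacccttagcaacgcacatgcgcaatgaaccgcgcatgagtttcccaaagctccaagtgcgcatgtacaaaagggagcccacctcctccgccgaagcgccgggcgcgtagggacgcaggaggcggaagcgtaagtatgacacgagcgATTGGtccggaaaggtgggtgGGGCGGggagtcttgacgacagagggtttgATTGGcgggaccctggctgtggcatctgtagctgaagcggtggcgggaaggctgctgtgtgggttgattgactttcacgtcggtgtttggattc
Neil3: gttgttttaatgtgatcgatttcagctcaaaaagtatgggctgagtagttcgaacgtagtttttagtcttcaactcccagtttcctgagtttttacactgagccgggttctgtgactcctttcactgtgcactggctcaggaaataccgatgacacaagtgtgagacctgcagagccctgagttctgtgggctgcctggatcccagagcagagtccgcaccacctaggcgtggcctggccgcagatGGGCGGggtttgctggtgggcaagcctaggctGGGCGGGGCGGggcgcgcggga

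Promoter windows were found for 9 of the 10 members, and not for Neil2. The first listed window of each of the 9 held 14 to 31 CpG dinucleotides, and the median over 32851 promoter windows was 7. Tdg was alone among the 9 in holding the cyclic AMP response element, 135 bases before the start, which 1.79% of all windows hold. It was also alone in holding the E-box, which 7.15% of all windows hold. Mbd4 held 2 CCAAT boxes, each as ATTGG, and 1 GC box. Neil3 held 3 GC boxes within 40 bases of the start, the last 2 sharing 1 base, and no CCAAT box. GC boxes stand in 35.7% and CCAAT boxes in 37.4% of all windows. A match to these letters is a description of the sequence, with no measurement of binding.

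The genotype labels were compared for each glycosylase in the home cage, after exploration and averaged over both. Of the 10 members, 7 reached 1 FPKM in at least 2 libraries and were tested; Neil3 did so through the KO-labelled libraries alone and is left out of the counts of calls. Of the other 6 tested members, 0 were called in any of the 3 comparisons (limma), where 3.57%, 0.597% and 2.13% of the 11892 tested genes were called. At an unadjusted p under 0.05, 0, 1 and 4 of the 6 were lower and 0 higher, beside 9.25%, 9.65% and 11.8% of all tested genes lower. In each comparison 5 of these 6 had a negative log2 change, with medians of -0.19, -0.23 and -0.19, where the medians of all tested genes were -0.02, -0.02 and -0.01.

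Ogg1, which removes 8-oxoguanine paired with cytosine, had 4.25 and 3.76 FPKM in WT-labelled and 3.22 and 3.44 FPKM in KO-labelled home cage libraries. After exploration it was at 3.78, 3.97 and 4.93 FPKM in WT-labelled and at 3.12, 3.99 and 2.61 FPKM in KO-labelled libraries. The KO-labelled values lay below the WT-labelled ones in the home cage, and 1 KO-labelled exploration library overlapped with them. The averaged log2 change was -0.26 (SE 0.10, 95% interval -0.48 to -0.04), which was not called (limma adjusted p 0.181).

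Neil1, which cuts oxidised pyrimidines and acts on single-stranded and bubble DNA, had 1.41 and 2.24 FPKM in WT-labelled and 1.45 and 0.77 FPKM in KO-labelled home cage libraries. After exploration the values were 0.94, 1.16 and 1.31 FPKM against 0.77, 1.23 and 0.69 FPKM. Groups overlapped in both environments, and WT-labelled home cage library 2 was the highest of all 10. The averaged log2 change was -0.30 (SE 0.13, 95% interval -0.59 to -0.02, limma adjusted p 0.221).

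Nthl1, the endonuclease III homologue for oxidised pyrimidines, was at 1.11 and 0.65 FPKM in WT-labelled and 1.00 and 0.84 FPKM in KO-labelled home cage libraries. After exploration it was at 1.07, 1.37 and 0.92 FPKM against 0.99, 0.46 and 0.80 FPKM. The groups overlapped in both environments. Its averaged log2 change of -0.12 had a 95% interval of -0.38 to 0.13 (limma adjusted p 0.595).

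Smug1, which removes uracil and hydroxymethyluracil, had the averaged change nearest to 0 among the tested members, with opposite signs in the 2 environments (-0.06 in the home cage and 0.09 after exploration). It was at 4.69 and 5.52 FPKM in WT-labelled and 5.12 and 4.56 FPKM in KO-labelled home cage libraries, and at 5.39, 5.11 and 5.51 FPKM against 6.45, 5.93 and 4.96 FPKM after exploration. The groups overlapped in both environments. The averaged log2 change was 0.01, and its 95% interval of -0.16 to 0.19 bounds the size of any difference (limma adjusted p 0.94); leaving out any of 3 libraries turned its sign (WT-labelled home cage library 1, -0.03; KO-labelled home cage library 1, -0.02; KO-labelled exploration library 1, -0.02).

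Tdg and Mbd4 each had lower KO-labelled than WT-labelled values in the home cage, without overlap. Tdg was at 24.67 and 27.22 FPKM in WT-labelled and 22.07 and 23.77 FPKM in KO-labelled home cage libraries, and Mbd4 at 3.32 and 3.49 FPKM against 2.19 and 3.30 FPKM. After exploration Tdg overlapped, with 21.12, 22.74 and 21.85 FPKM against 20.07, 20.27 and 21.58 FPKM. Mbd4 did not overlap there, with 2.35, 2.21 and 2.81 FPKM against 1.94, 2.01 and 1.62 FPKM. The averaged log2 changes were -0.13 for Tdg (SE 0.06, 95% interval -0.25 to -0.01, limma adjusted p 0.226) and -0.26 for Mbd4 (SE 0.10, 95% interval -0.48 to -0.04, limma adjusted p 0.167). Neither was called.

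Neil3, whose split was known when the genes were chosen, is left out of the counts by library values alone. Of the other 9 members, 5 were lower without overlap in the KO-labelled home cage libraries (Ogg1, Mutyh, Ung, Tdg and Mbd4). No member of the 9 was higher there. Of all 17986 genes, 21.2% were lower and 18.6% higher without overlap. After exploration 1 was lower without overlap (Mbd4), beside 10.8% of all genes, and 1 was higher (Neil2), beside 8.26%. Over both environments all 9 overlapped, where 0.656% of all genes were higher and 1.00% lower without overlap. Mbd4 was thus the one member other than Neil3 that stood apart in the same direction in each environment. The share of all genes that did so was not counted. In the home cage its nearest values were 3.30 FPKM (KO-labelled) and 3.32 FPKM (WT-labelled), and over both environments its labels overlapped. Astrocyte markers moved with the genotype label: 2 of 5 were called higher in the KO-labelled libraries, averaged. Their summed level was 58.0 to 64.0 FPKM in WT-labelled and 90.4 to 117 FPKM in KO-labelled home cage libraries, and 69.1 to 88.9 against 89.2 to 101 FPKM after exploration. In the home cage, sums of other lists were also higher in the KO-labelled libraries without overlap. They were 32.2 to 36.5 against 24.5 to 25.2 FPKM for microglia, 24.6 to 29.1 against 18.7 to 19.3 FPKM for endothelium and 174 to 211 against 127 to 152 FPKM for oligodendrocytes, with 0 markers of these lists called between the labels, averaged (limma). Interneuron sums were also higher, at 182 to 189 against 173 to 176 FPKM. Other sums were lower there without overlap. CA1 pyramidal sums were 731 to 808 against 809 to 826 FPKM, and CA2 sums 105.2 to 105.5 against 115 to 228 FPKM. CA3 sums were 9.65 to 12.3 against 13.15 to 34.05 FPKM, and choroid plexus sums 9.34 to 14.1 against 17.6 to 234 FPKM. No marker of these lists was at 0 in all libraries, and their part in the values of the glycosylases was not tested.

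**Figure D3:**
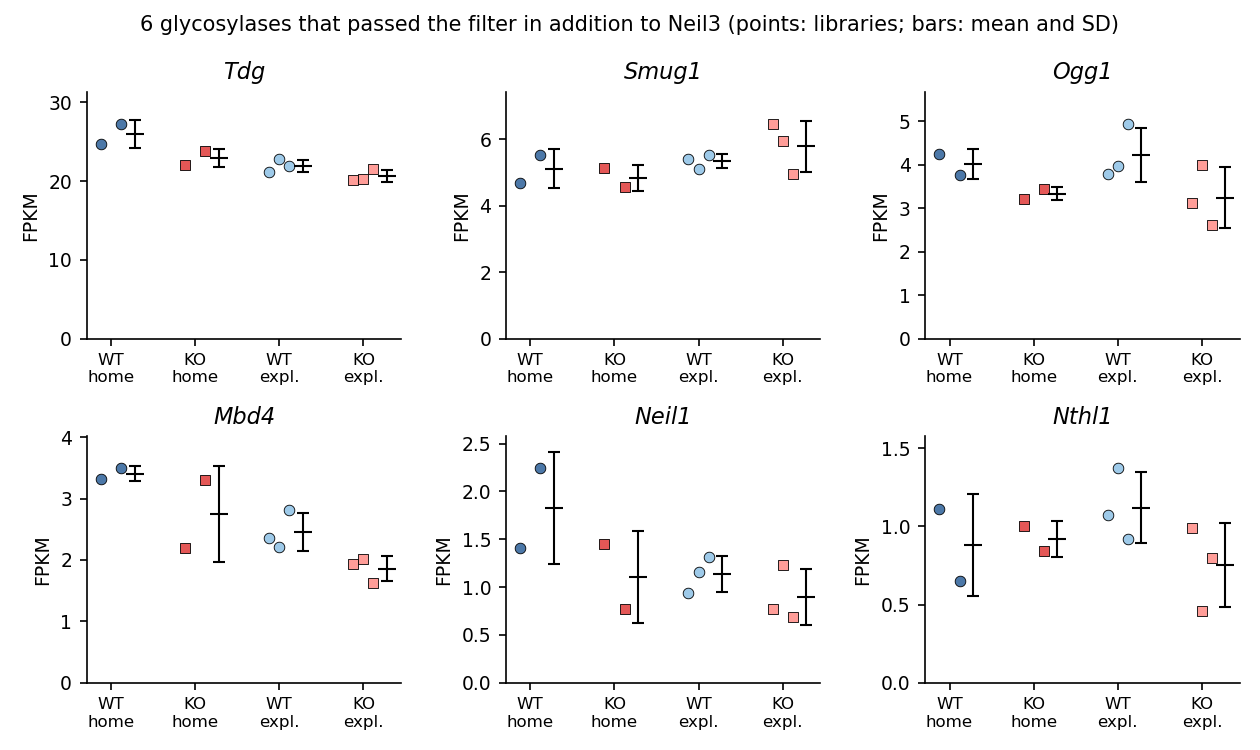
FPKM of the 6 tested members other than Neil3, with 1 point per library in 4 groups and bars for the mean and SD of each group. Tdg and Mbd4 are lower in the exploration groups than in the home cage group of the same genotype label, and Smug1 shows overlapping values throughout.

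The second question of the design was how transcripts differed after spatial exploration. Home cage and exploration values stand in separate blocks of the deposited table, so environment and block cannot be told apart. Averaged over the genotype labels, 2 of the 6 tested members other than Neil3 were called, Mbd4 and Tdg, both lower. In the same comparison 19.2% of all tested genes were called lower and 31.9% in all, so 2 of 6 is not a result particular to the glycosylases.

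Mbd4 averaged 3.08 ± 0.596 FPKM (SD, n = 4) in home cage libraries against 2.16 ± 0.406 FPKM (SD, n = 6) in exploration libraries, a log2 change of -0.37 (SE 0.10, 95% interval -0.58 to -0.15, limma adjusted p 0.0176). For Tdg the levels were 24.4 ± 2.15 FPKM (SD, n = 4) and 21.3 ± 1.01 FPKM (SD, n = 6), a log2 change of -0.19 (SE 0.06, 95% interval -0.31 to -0.07, limma adjusted p 0.0236). Within each genotype label, every exploration library was below every home cage library for both genes. Such separation was seen in 23.1% of all 17986 genes in the WT-labelled and 25.7% in the KO-labelled libraries. Taken by label, the log2 changes of Mbd4 were -0.35 and -0.38 in WT-labelled and KO-labelled libraries (limma adjusted p 0.159 and 0.0637), and those of Tdg were -0.23 and -0.14 (limma adjusted p 0.0992 and 0.184), so neither gene was called within either label; without KO-labelled home cage library 1, Mbd4 was called in the KO-labelled libraries (-0.59, adjusted p 0.0142).

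Neither call held when 1 of certain libraries was left out. Without WT-labelled home cage library 2 the log2 changes were -0.35 for Mbd4 and -0.15 for Tdg (limma adjusted p 0.066 and 0.112), and without KO-labelled home cage library 2 they were -0.26 and -0.16 (0.0873 and 0.0959). KO-labelled home cage library 2 also had the lowest Wfs1, a CA1 marker, at 64.88 FPKM beside 127.3 to 238.69 FPKM elsewhere, and the highest Dcn at 27.24 FPKM beside 0.2 to 2.82 FPKM; their part in the result was not tested. Tdg was also not called without WT-labelled exploration library 1 (-0.18, adjusted p 0.0619) or with size factors (-0.14, adjusted p 0.0731), and Mbd4 not after quantile normalization (-0.22, adjusted p 0.088). Over all alternatives the adjusted p ranged from 0.0042 to 0.088 for Mbd4 and from 0.02 to 0.112 for Tdg.

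The remaining members were not called for exploration. The averaged log2 changes were -0.27 for Neil1 (95% interval -0.55 to 0.02), 0.13 for Smug1 (-0.04 to 0.31), 0.02 for Nthl1 (-0.24 to 0.27) and 0.01 for Ogg1 (-0.21 to 0.23). The intervals of Ogg1 and Nthl1 were centred near 0 but still span changes as large as that of Tdg. After quantile normalization Smug1 was called higher (log2 change 0.27, limma adjusted p 0.0227). By genotype label 0 of these 6 members were called (limma), beside 6.31% of all tested genes in the WT-labelled and 28.6% in the KO-labelled libraries. At an unadjusted p under 0.05, 2 and 1 members were lower, beside 14.2% and 23.9% of all tested genes. Counted by library values over all 10 members, Neil1, Ung, Tdg and Mbd4 were lower without overlap in the WT-labelled libraries, beside 23.1% of all genes. There 0 members were higher, beside 15.3% of all genes. In the KO-labelled libraries Tdg and Mbd4 were lower, beside 25.7% of all genes. Mutyh, the adenine glycosylase for A:8-oxoguanine mispairs, was higher there, as were 16.2% of all genes.

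Markers of other cell types moved with the environment. Of 5 oligodendrocyte markers 4 were called higher after exploration, averaged, and their summed level was 127 to 152 and 174 to 211 FPKM in WT-labelled and KO-labelled home cage libraries, and 182 to 345 and 219 to 249 FPKM after exploration. Of 4 blood markers 3 were tested and all 3 called higher. The blood sums were 76.3 to 115 and 96.8 to 115 FPKM in home cage and 176 to 236 and 123 to 228 FPKM in exploration libraries. For microglia 3 of 5 markers were called higher. The microglia sums were 24.5 to 25.2 and 32.2 to 36.5 FPKM in home cage and 31.8 to 38.2 and 34.7 to 38.6 FPKM in exploration libraries. No marker of these lists was at 0 in all libraries. Interneuron sums did not overlap, at 173 to 189 FPKM in home cage and 208 to 287 FPKM in exploration libraries, with 2 of 6 markers called higher. CA3 sums were 9.65 to 34.0 and 23.5 to 51.2 FPKM, with 2 of 3 tested markers called higher, and 2 of 5 astrocyte markers were called higher. Of the 7 CA1 markers 2 were called higher and 3 lower. The part of these markers in the values of Mbd4 and Tdg was not tested.

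The difference between the genotype labels in the response to exploration was called for 0 of these 6 members (limma), with 0 at an unadjusted p under 0.05, where 0.875% of all tested genes were called. The differences in log2 change ran from -0.32 for Nthl1 (95% interval -0.83 to 0.19) to 0.25 for Neil1 (95% interval -0.33 to 0.82). For Mbd4 and Tdg they were -0.02 (-0.46 to 0.41) and 0.09 (-0.15 to 0.33). With 2 home cage libraries per label these intervals are wide, and a missing call does not show that the labels responded alike.

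**Figure D4:**
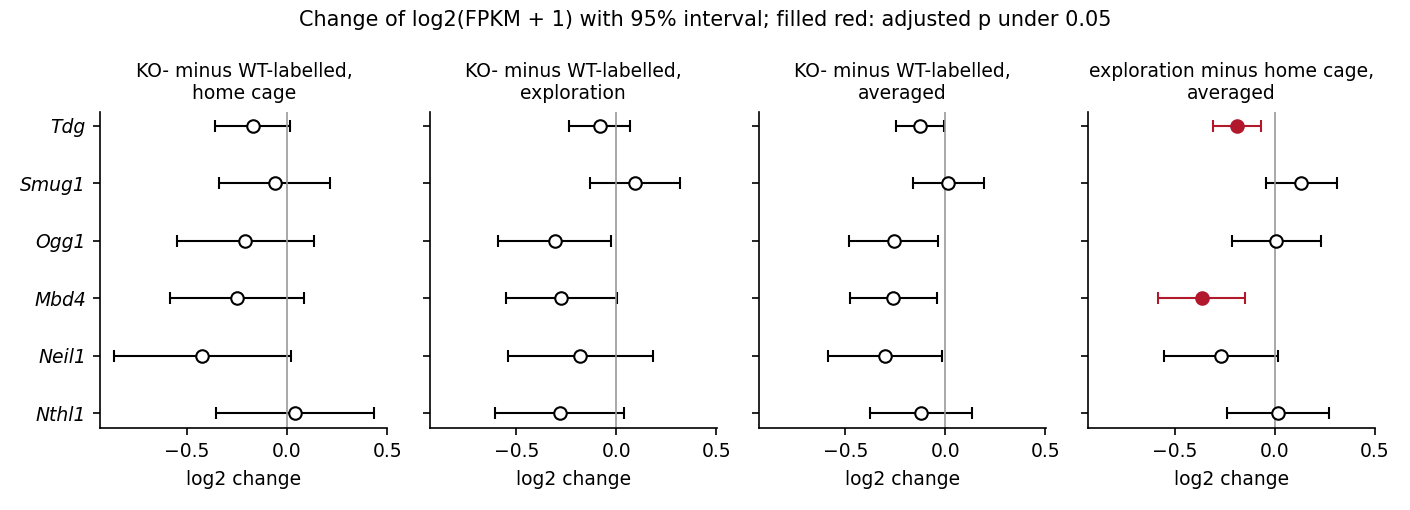
Log2 change of FPKM + 1 for the 6 tested members other than Neil3, with 95% intervals, between genotype labels (first 3 panels) and between environments (last panel). In the averaged comparison of labels 5 of 6 points lie below 0 and none is called, and in the last panel Tdg and Mbd4 are the called members, at -0.19 and -0.37.

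The rest of the base excision repair pathway was read from a list of 30 genes, of which 28 were tested. Mpg, the glycosylase for alkylated bases that stands outside the 10 members, was at 6.82 ± 0.698 FPKM (SD, n = 10), between Tdg and Smug1. The levels of the rest of the list ran from 0.10 FPKM for Pole, a replicative polymerase, to 115 FPKM for Hmgb1. Apex1, the main AP endonuclease, was at 44.2 ± 2.65 FPKM, Polb, the gap-filling polymerase, at 38.8 ± 4.88 FPKM, and Parp1, the strand break sensor, at 37.7 ± 4.61 FPKM. Xrcc1, the scaffold of single-strand break repair, was at 14.1 ± 0.861 FPKM and its partner ligase Lig3 at 3.19 ± 0.846 FPKM. Tdg thus lay below Apex1, Polb and Parp1 and above Xrcc1, and Smug1 lay above Lig3. The order of Ogg1 and Lig3 differed by environment. Lig3 was above Ogg1 in every home cage library and below it in every exploration library.

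Between the genotype labels 0 of these 28 genes were called in the home cage, after exploration or averaged (limma), beside 3.57%, 0.597% and 2.13% of all tested genes. At an unadjusted p under 0.05, 2, 1 and 3 were lower, beside 9.25%, 9.65% and 11.8% of all tested genes. Higher at that threshold were 0, 2 and 1, beside 1082, 899 and 1001 of all 11892 tested genes. Averaged, 7 had a positive and 21 a negative log2 change, with a median of -0.04. Of all tested genes 5553 were positive and 6339 negative, with a median of -0.01. After exploration, averaged, 2 were called higher and 2 lower of 28, beside 12.6% and 19.2% of all tested genes. Lig3 was at 4.52 ± 0.240 FPKM in home cage and 2.74 ± 0.142 FPKM in exploration libraries with the WT label. With the KO label it was at 3.57 ± 0.283 and 2.49 ± 0.419 FPKM (SD, n = 2 and 3 for each label). Its averaged log2 change was -0.48 (SE 0.08, limma adjusted p 0.00218). Pold3, a subunit of polymerase delta, was lower (log2 change -0.36, limma adjusted p 0.0214). Hmgb1, a DNA-bending chromatin protein, and Pcna, the polymerase clamp, were higher (0.21 and 0.17, limma adjusted p 0.0124 and 0.0373). With the KO label Parp1 was higher after exploration by 0.42 on the log2 scale (SE 0.08, limma adjusted p 0.00514). Its group levels were 31.5 ± 0.262 FPKM (SD, n = 2) in home cage and 42.4 ± 3.43 FPKM (SD, n = 3) in exploration libraries. With the WT label they were 39.2 ± 3.32 and 36.2 ± 0.696 FPKM, and the averaged log2 change of 0.15 was not called (limma adjusted p 0.0652). The difference between the labels in the response to exploration was called for 0 of the 28 genes (limma), Parp1 included, beside 0.875% of all tested genes. With so few libraries per group, a missing call does not show that the labels responded alike.

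Tdg removes products of the Tet enzymes. Of 10 genes on a list of DNA methylation and active demethylation, 7 were tested. Averaged over labels, 2 were called higher and 3 lower after exploration, beside the same 12.6% and 19.2% of all tested genes. Tet2 and Tet3, which oxidise methylcytosine to the bases that Tdg removes, were lower (log2 changes -0.91 and -0.66, SE 0.10 and 0.09, limma adjusted p 0.000135 and 0.000647), as was the methyltransferase Dnmt3a (-0.80, SE 0.10, limma adjusted p 0.000336). The stress- and activity-inducible Gadd45b and Gadd45g were higher (0.82 and 0.62, limma adjusted p 0.000294 and 0.00366). Tet2 had 3.27 ± 0.559 and 2.82 ± 0.0141 FPKM in WT-labelled and KO-labelled home cage libraries and 1.32 ± 0.0666 and 0.983 ± 0.280 FPKM after exploration. The changes of Tet2, Tet3 and Dnmt3a were each larger than those of Tdg and Mbd4 on the log2 scale; whether they differ was not tested. On the crosslink and fork list 0 of 16 tested genes were called higher and 3 lower, a share of 18.8% beside 19.2% of all tested genes called lower. They were Traip, the ubiquitin ligase that acts with Neil3 at crosslinks (log2 change -0.84, SE 0.12, limma adjusted p 0.000882), with Slx4 and Ercc4 at -0.39 and -0.31 (limma adjusted p 0.0074 and 0.00979). These environment differences carry the same limit of separate blocks.

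**Figure D5:**
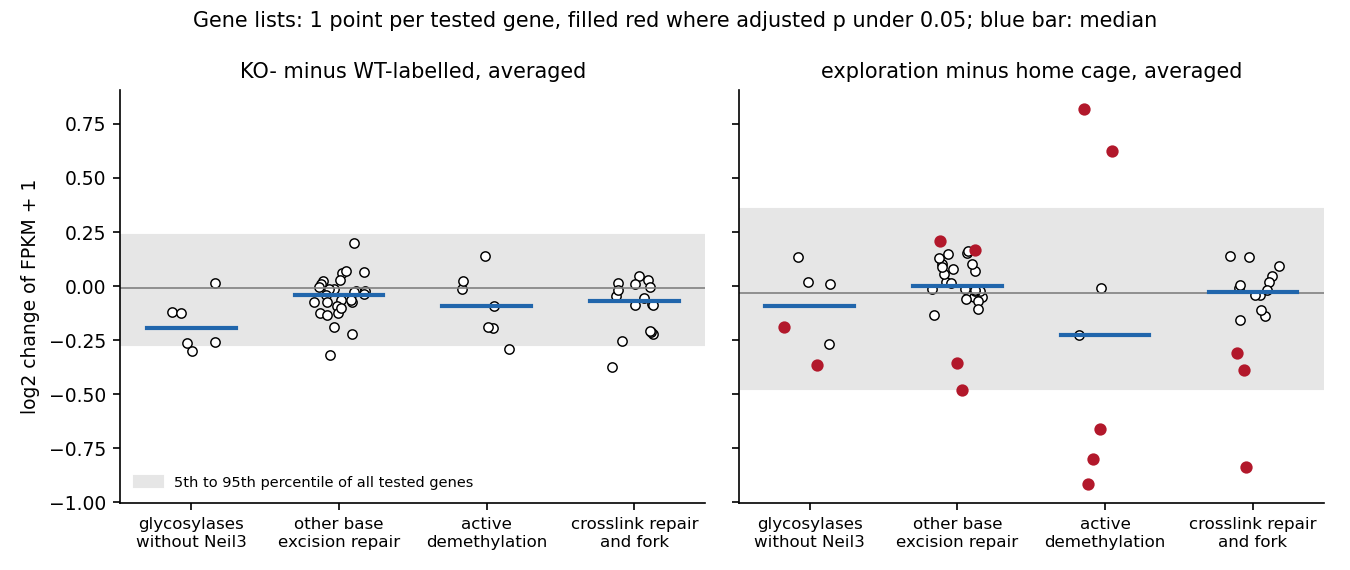
Log2 change of FPKM + 1 for each tested gene of 4 lists, with blue bars for the list medians and a grey band from the 5th to the 95th percentile of all tested genes. The left panel compares genotype labels and holds no called gene, and the right panel compares environments, where 2 of 6 glycosylases, 4 of 28 other repair genes, 5 of 7 demethylation genes and 3 of 16 crosslink and fork genes are called.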

How the data were processed

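Paired reads of 100 bp on a BGISEQ-500 came from CA1 cut at 8 µm, per the labels. The submitters' processing notes name HISAT, StringTie, GATK, Bowtie2, RSEM and the builds GRCm38 and mm10, without roles. The deposited values are FPKM, which the authors scaled to transcript length and library depth, in a block of 19156 genes (exploration) and one of 18257 (home cage); whether the blocks were normalized together is not given in the sources used here. They were joined on gene ID (17986 genes). Use of strand is not given, so overlapping genes are uncertain.

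A count model was not used, since FPKM are not counts. The step between low values in genes with 1 transcript gave an estimate of depth, using GENCODE M21 lengths less 50 nt, the offset with the clearest steps; floors and fragment numbers cover counting error only. The 11892 genes reaching 1 FPKM in 2 or more libraries were tested with limma 3.58.1 (R 4.3.3) on log2(FPKM + 1), with a variance trend and 1 mean per group over all 10 libraries (6 residual and 5.71 prior degrees of freedom). Changes on this scale are understated for low genes. Adjusted p-values are Benjamini-Hochberg values over all tested genes, called under 0.05. The 7 comparisons were genotype label and environment, each within the levels of the other and averaged, and their interaction. limma was tested on simulated data. A permutation test planned for Neil3 between the labels is not reported, since its split was known. Members and gene lists were chosen with earlier results of these data known. All 10 members are named; from other lists, called genes (up to 5 per comparison), and for Neil3 the 3 genes closest in profile. Mpg, the uncalled genes of later repair steps and the markers were named outside that rule, after their values were seen. Alternatives were pseudocount 0.1, no filter, a filter of 5 FPKM, size factors, quantile normalization, no trend, robust empirical Bayes, only the groups compared, and leaving out each library. Promoters and gene positions are from RefSeq (GRCm38.p6).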

Additional observations from a re-analysis of the deposited data

How the results depend on the processing

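The difference in Neil3 between the labels was 12.26 to 13.98 FPKM over all alternatives. No other member was called between genotype labels under any alternative. For exploration averaged over labels, the 2 called members became 1 with a filter of 5 FPKM, which removes Mbd4, and 1 with size factors, and 0 to 2 when 1 library was left out. In the KO-labelled libraries 1 member in place of 0 was called after quantile normalization (Smug1), and 0 to 1 when 1 library was left out. Of 831 log2 changes of single members under alternatives, Neil3 included, 792 kept direction and side of the threshold. Of the rest, 28 changed sign, all of them uncalled, 7 lost and 4 gained a call, and the cause was not tested. Many of the 831 could not change direction, since leaving out a library of a group not compared leaves the log2 change as it was. The split of Neil3 between labels was known. The 792 is therefore no measure of how firm the results are. Ogg1 changed sign for exploration in the KO-labelled libraries with size factors (0.0055) and quantile normalization (0.1282), and Mbd4 in the response difference with quantile normalization (0.0017). With 1 library left out, sign changes came with these ranges: home cage labels, Nthl1 -0.1374 to 0.2174 and Smug1 -0.1606 to 0.0359; averaged labels, Smug1 -0.0343 to 0.0639; exploration in WT-labelled libraries, Ogg1 -0.0365 to 0.1285 and Smug1 -0.0417 to 0.1548; in KO-labelled libraries, Neil1 -0.3802 to 0.0889 and Ogg1 -0.1666 to 0.0669; averaged exploration, Ogg1 -0.0544 to 0.0624 and Nthl1 -0.0715 to 0.1059; response difference, Ogg1 -0.2244 to 0.0092 and Mbd4 -0.2393 to 0.1915. The counts over all tested genes ranged more widely: from 425 in the home cage to between 13 and 588, from 71 after exploration to between 16 and 104, from 253 averaged to between 28 and 422, from 750 and 3400 for exploration by label to between 84 and 1710 and between 505 and 3568, from 3790 averaged to between 1916 and 4248, and from 104 for the response difference to between 0 and 436. Size factors moved the median of all genes by at most 0.054. Depth limits the members near or under 1 FPKM; fragment numbers were not estimated for Mutyh, Ung and Tdg. No paired analysis was possible because the labels give the groups no shared replicate numbers.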

Other observations

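Mutyh, Ung and Neil2 stayed under 1 FPKM in every library and were not among the tested genes. Mutyh was at 0.41 and 0.49 FPKM in WT-labelled and 0.22 and 0.20 FPKM in KO-labelled home cage libraries, and at 0.43, 0.49 and 0.49 FPKM against 0.33, 0.43 and 0.27 FPKM after exploration. In the home cage the labels did not overlap, and after exploration 1 library of each label had the same value. With no filter on low values its averaged log2 change between labels was -0.20 (SE 0.04, limma p 0.000928, adjusted p 0.0776), which was not called, and the + 1 on the log scale understates it. Among the 9 members other than Neil3 this was the smallest unadjusted p for that comparison in the unfiltered fit.

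Ung, the main nuclear and mitochondrial uracil glycosylase, was at 0.55 and 0.48 FPKM in WT-labelled and 0.23 and 0.35 FPKM in KO-labelled home cage libraries. After exploration it was at 0.37, 0.14 and 0.34 FPKM against 0.40, 0.23 and 0.35 FPKM, so the labels were apart in the home cage and overlapped after exploration. Its response difference in the unfiltered fit was 0.28 (95% interval -0.0018 to 0.57, limma adjusted p 0.359). Neil2, which prefers damage in bubble structures, was at 0 and 0.15 FPKM in WT-labelled and 0.03 and 0.29 FPKM in KO-labelled home cage libraries, and at 0.06, 0.11 and 0.08 FPKM against 0.14, 0.20 and 0.26 FPKM after exploration. These correspond to an estimated 0 to 10 fragments, and its averaged log2 change of 0.13 had a 95% interval of -0.02 to 0.27 (limma adjusted p 0.381).

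Without Neil3, the summed FPKM of the other 9 glycosylases was 40.4 to 44.0 in WT-labelled and 35.5 to 37.5 in KO-labelled home cage libraries, and 35.5 to 38.2 and 33.1 to 34.8 after exploration. With Neil3 the KO-labelled sums were 41.5 to 52.7 FPKM.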
